A study of Mus musculus with 8 samples.

Results

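The tumour necrosis factor (TNF) superfamily comprises small trimeric ligands and the receptors that bind them. The genes described here were those whose symbol on the array platform begins with Tnfrsf or Tnfsf, together with Tnf, Lta, Ltb, Ltbr, Fas, Fasl, Cd40, Cd40lg, Cd27 and Cd70. The rule gave 41 genes of the 19560 measured, 24 receptors and 17 ligands. They were read on 328 probe sets, each of about the size of an exon, with 1 to 17 per gene and a median of 8. Expression was read from whole liver of 8 males, 6 weeks old, each on its own Affymetrix array. In 4 mice the kinase TAK1 (gene Map3k7) and caspase 8 were both deleted in liver parenchymal cells (LPC), and this group is called Tak1/Casp8. The other 4 mice lacked TAK1 in LPC and carried Rip3-/-, a knockout of the necroptosis kinase gene Ripk3 that is not restricted to LPC, and are called Tak1/Rip3. TAK1 was thus deleted in LPC of every mouse, and livers with intact TAK1 were not analysed here. The Cre driver of the LPC deletion is not named in the sources used here. Liver cells of other types retain Casp8 and Map3k7 in both groups.

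Ligands of the family act on cells that carry the matching receptor. Receptors with a death domain, such as TNF receptor 1 and Fas, can assemble a complex that activates caspase 8, and where caspase 8 is blocked RIPK1 and RIPK3 can start necroptosis instead. Many receptors of the family signal through TRAF adaptors, through which TAK1 and the IKK kinases switch on NF-kB. In the liver TNF and Fas ligand are known as triggers of hepatocyte death, and the B cell and T cell branches of the family act mainly in immune cells.

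Intensities are on the log2 scale after RMA, the authors' normalisation, and each gene's value was the median over its probe sets on an array. Differences are given as the Tak1/Casp8 mean minus the Tak1/Rip3 mean, with the SE where a ± follows a difference, from 4 arrays in each group. They were tested with limma over all 19560 genes and called at a Benjamini-Hochberg adjusted p under 0.05. The gene values of Casp8 and Ripk3 followed the labels. Casp8 was 10.07, 9.92, 10.07 and 9.81 in Tak1/Casp8 livers, against 11.28, 11.09, 11.40 and 11.33 in Tak1/Rip3 livers, a difference of -1.31 (adjusted p = 0.000123). Ripk3 was 7.99, 7.78, 7.96 and 7.88 in Tak1/Casp8 livers, against 6.36, 7.10, 7.04 and 7.18 in Tak1/Rip3 livers. The Ripk3 difference of 0.98 (adjusted p = 0.00782) was -0.036 on its brightest probe set, and which probe sets lie in the deleted parts was not tested. Map3k7, targeted in LPC of all mice, had a difference of -0.08 (adjusted p = 0.695 in limma). Array medians lay between 8.06 and 8.16. The hepatocyte markers, such as Alb at 13.91 ± 0.01 in Tak1/Casp8 livers and 13.95 ± 0.01 in Tak1/Rip3 livers (SD, n = 4 each), were bright in both groups, and 0 of 6 were called by limma, with 0 at an unadjusted p under 0.05. The least correlated arrays of their groups were Tak1/Casp8 replicate 4 and Tak1/Rip3 replicate 2.

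Of the family only the BAFF receptor gene Tnfrsf13c passed the test, lower in Tak1/Casp8 livers. This is 1 of 41 members (2.44%), against 6.69% of all genes. In the higher direction 0 members passed in limma, against 2.64% of all genes, and 1 in the lower direction, against 4.05%. The difference was above 0 in 24 of the 41 members, against 52.6% of all genes. At an unadjusted p under 0.05 there were 8 members (19.5%), against 21.1% of all genes. In 3 members (7.32%) the groups did not overlap at all, against 14.6% of all genes. These were 2 in the lower direction (Tnfrsf13c and the TRAIL receptor gene Tnfrsf10b), against 8.30% of all genes, and 1 in the higher direction (Tnfrsf11b), against 6.33%. The median absolute difference was 0.16 for the members and 0.14 for all genes, and signed medians were 0.03 and 0.01. No member differed by 1 or more on the log2 scale, against 1.65% of all genes, and 3 differed by 0.5 or more, against 7.59%. The 95% confidence interval of a member extended, at the median, 0.29 to either side, so differences smaller than that were generally not resolved with 4 arrays per group.

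**Figure D1:**
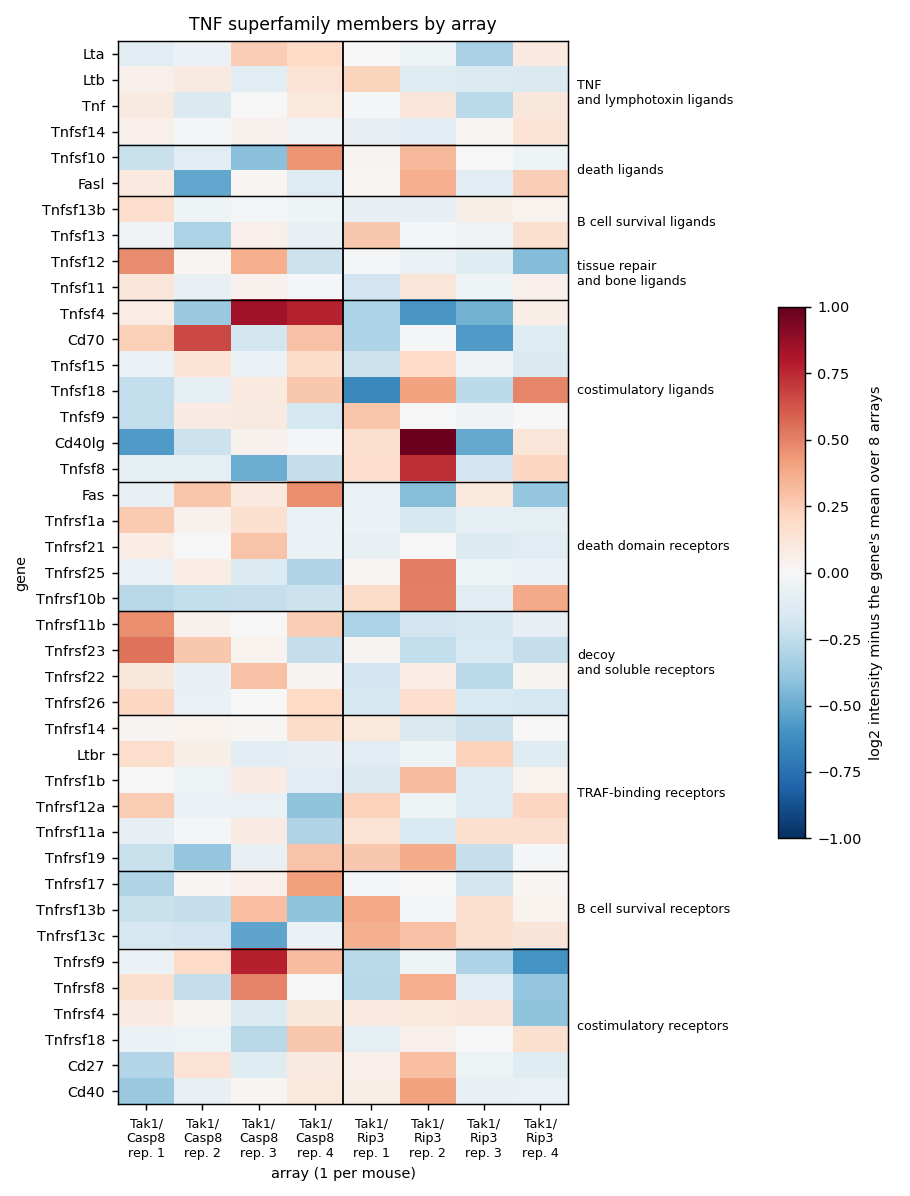
Heat map of the 41 members (rows, ordered by role) over the 8 arrays (columns, Tak1/Casp8 left of the line). Colour is the log2 intensity minus the gene's mean over the 8 arrays. Few rows split at the line, among them Tnfrsf13c, Tnfrsf10b and Tnfrsf11b, while Cd40lg and Tnfsf8 were highest on Tak1/Rip3 replicate 2.

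The call held in 6 of 20 other settings. With quantile normalisation or a common array median, 2 members passed, both higher in Tak1/Casp8 livers (Tnfrsf11b and Tnfrsf9), and Tnfrsf13c did not (adjusted p = 0.0677 and 0.0651). The split of calls was then 2 higher and 0 lower, where the fit on the deposited scale gave 0 higher and 1 lower. Over all genes, the split of 516 higher and 792 lower calls became 857 and 631 with the common median, a setting that moved the median difference of all genes to 0.08. Among genes above the 50th percentile of mean level, 3 of 13 members passed (23.1%), against 13.7% of the genes left, so the members' share was then the higher one. Without Tak1/Casp8 replicate 4 and Tak1/Rip3 replicate 2 together, no member passed in limma, with 9 at an unadjusted p under 0.05. Leaving out 1 array at a time gave 1 call or none: Tnfrsf13c without Tak1/Casp8 replicate 4, Tnfrsf9 without Tak1/Casp8 replicate 1, Tnfrsf10b without Tak1/Rip3 replicate 3, and 0 in limma without any other array, with 6 or 7 at an unadjusted p under 0.05.

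No difference passed for TNF itself or the lymphotoxins. Tnf, the ligand of TNF receptors 1 and 2, was 6.89, 6.66, 6.80 and 6.91 in Tak1/Casp8 livers, against 6.79, 6.92, 6.53 and 6.92 in Tak1/Rip3 livers. The ranges overlapped almost entirely. The difference was 0.02 ± 0.11 (limma adjusted p = 0.941), and its 95% interval of -0.23 to 0.27 reached 1.21-fold at its outer end. The lymphotoxin genes Lta and Ltb differed by 0.14 and 0.09, and Tnfsf14, which encodes LIGHT, a ligand of the lymphotoxin beta receptor, by 0.02. None of the 4 passed in limma, and none had an unadjusted p under 0.05. Lta and Tnfsf14 lay under the lower quartile of all probe sets on each of the 8 arrays (6.47 to 6.52). Tnf, Ltb and Lta lie close together on chromosome 17. Because bulk liver RNA was measured, fewer cells of a type and less RNA per cell cannot be told apart for any of these genes.

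The receptors for these ligands did not pass either. Tnfrsf1a, the death domain receptor of TNF, was 11.02, 10.81, 10.92 and 10.70 in Tak1/Casp8 livers, against 10.71, 10.61, 10.67 and 10.68 in Tak1/Rip3 livers. Only Tak1/Casp8 replicate 4 fell inside the Tak1/Rip3 range. The difference was 0.20 ± 0.10 (limma adjusted p = 0.275), with a 95% interval of -0.02 to 0.41, and 13 of its 14 probe sets were on the positive side. Tnfrsf1b, the second TNF receptor, which has no death domain, was 9.70 ± 0.08 in Tak1/Casp8 livers and 9.74 ± 0.21 in Tak1/Rip3 livers (SD, n = 4 each). Ltbr, the lymphotoxin beta receptor, was 9.52 ± 0.13 in Tak1/Casp8 livers and 9.50 ± 0.16 in Tak1/Rip3 livers. The LIGHT receptor gene Tnfrsf14 differed by 0.13. Cd27, Ltbr and Tnfrsf1a lie close together on chromosome 6 and differed by -0.09, 0.03 and 0.20.

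Of the other death receptors, Tnfrsf10b and Fas differed by more than Tnfrsf1a, in opposite directions, and neither passed. Tnfrsf10b, the mouse receptor of the death ligand TRAIL, was 8.09, 8.12, 8.13 and 8.15 in Tak1/Casp8 livers, against 8.55, 8.87, 8.25 and 8.74 in Tak1/Rip3 livers. The groups did not overlap, and the SD was 0.03 in Tak1/Casp8 livers, against 0.27 in Tak1/Rip3 livers. The difference was -0.48 ± 0.13 (SE), just short of the threshold in limma (adjusted p = 0.0525). Each of its 11 probe sets was on the negative side, by -0.78 to -0.04. At the same threshold it passed without Tak1/Rip3 replicate 3 (-0.60, adjusted p = 0.0179), with genes filtered at the 30th or 50th percentile of level, with the trended robust variance and with array weights. Without any other single array its adjusted p lay between 0.0772 and 0.143.

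Fas, the receptor of Fas ligand, was 8.13, 8.49, 8.31 and 8.67 in Tak1/Casp8 livers, against 8.14, 7.78, 8.31 and 7.82 in Tak1/Rip3 livers. The groups overlapped, since Tak1/Casp8 replicates 1 and 3 lay at the level of Tak1/Rip3 replicates 1 and 3. Fas differed by 0.38 ± 0.15 (limma adjusted p = 0.177), and 8 of its 9 probe sets were on the positive side. Tnfrsf21 (death receptor 6) and Tnfrsf25 (death receptor 3) differed by 0.15 and -0.22. Of the 5 death domain receptors 0 passed in limma, with 2 at an unadjusted p under 0.05 (Tnfrsf10b and Fas), against 21.1% of all genes.

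Neither death ligand passed. Tnfsf10, which encodes TRAIL, was 7.56, 7.67, 7.36 and 8.22 in Tak1/Casp8 livers, against 7.81, 8.11, 7.78 and 7.73 in Tak1/Rip3 livers. Tak1/Casp8 replicate 4 was the highest of the 8, and the other 3 arrays of its group were the lowest. The difference was -0.15 (SE 0.17, limma adjusted p = 0.670), and -0.33 without that array. Fasl was 5.26 ± 0.27 in Tak1/Casp8 livers and 5.53 ± 0.21 in Tak1/Rip3 livers (SD, n = 4 each), under the lower quartile on all arrays. It differed by 0.12 on its brightest probe set.

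The decoy and soluble receptors bind ligands without passing on a death signal. Osteoprotegerin, encoded by Tnfrsf11b, is a secreted receptor of RANK ligand that also binds TRAIL, and in mice Tnfrsf22 and Tnfrsf23 encode decoy receptors of TRAIL. Tnfrsf11b was 8.57, 8.15, 8.11 and 8.35 in Tak1/Casp8 livers, against 7.79, 7.92, 7.95 and 8.02 in Tak1/Rip3 livers. The groups did not overlap, with all 4 Tak1/Casp8 values above the highest of Tak1/Rip3. The difference was 0.38 ± 0.12 (limma adjusted p = 0.0899), and 7 of its 8 probe sets were positive. It passed with either other scaling (0.44 and 0.45, adjusted p = 0.0440 and 0.0460) and with genes filtered at the 50th percentile of level (0.0497).

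Tnfrsf23, Tnfrsf22 and Tnfrsf26 lie close together on chromosome 7. They differed by 0.30, 0.18 and 0.17, with overlapping groups and adjusted p between 0.305 and 0.451 in limma. On its brightest probe set Tnfrsf23 differed by 0.47 and passed (adjusted p = 0.0406), whereas Tnfrsf26 differed by -0.28. These genes are close copies that may share probes, so their separate values are uncertain. Of the 4 decoy and soluble receptors 0 passed in limma, with 1 at an unadjusted p under 0.05 (Tnfrsf11b), against 21.1% of all genes.

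**Figure D2:**
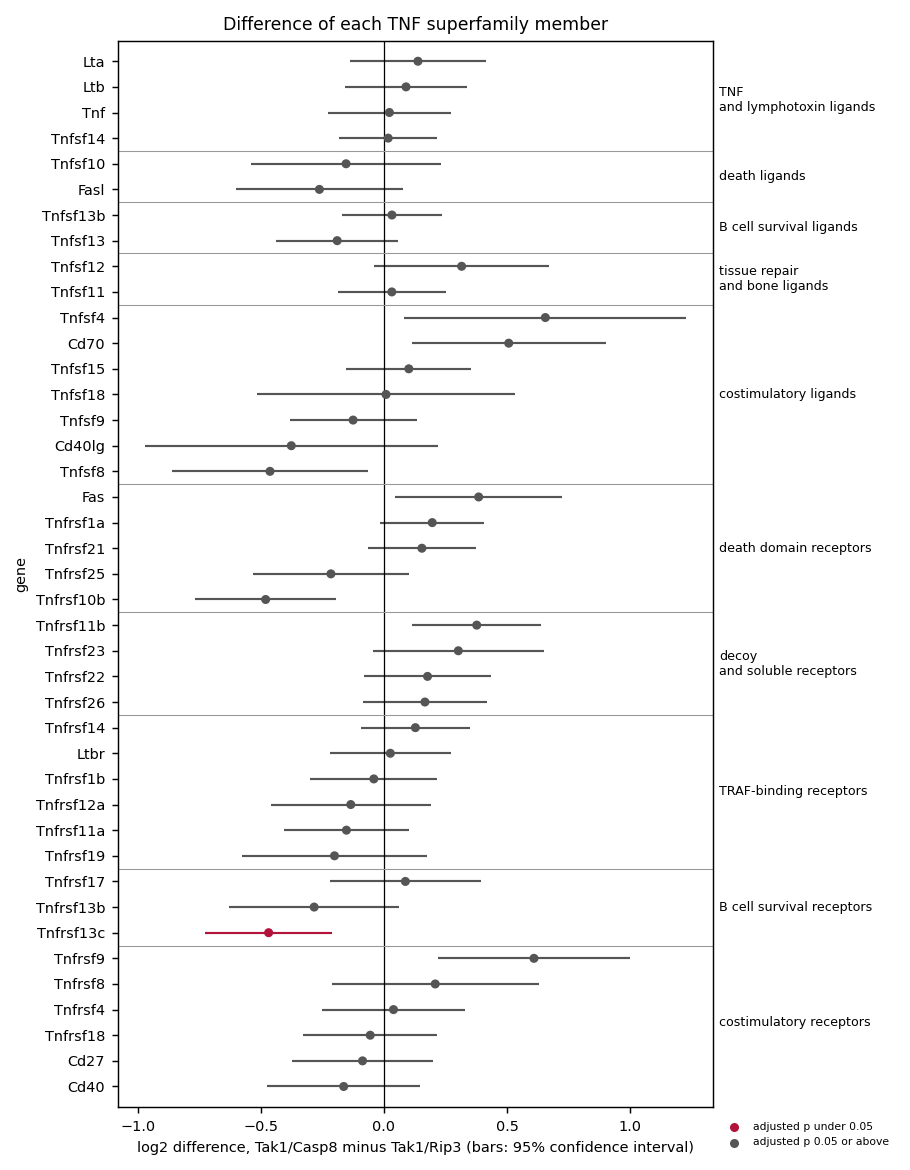
Log2 difference of each member (horizontal axis, Tak1/Casp8 minus Tak1/Rip3) with its 95% confidence interval from limma, ordered by role. Only Tnfrsf13c, at -0.47, had an adjusted p under 0.05. All 4 decoy and soluble receptors lie right of 0, with Tnfrsf26 at -0.28 on its brightest probe set.

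The receptors and ligands of the B cell branch support the survival of B cells and plasma cells. Tnfrsf13c, the receptor of BAFF on B cells, was 7.75, 7.73, 7.39 and 7.86 in Tak1/Casp8 livers, against 8.28, 8.21, 8.08 and 8.05 in Tak1/Rip3 livers. The groups did not overlap, with Tak1/Casp8 replicate 3 the lowest. The gene was 1.38-fold lower (log2 difference -0.47 ± 0.12 SE, adjusted p = 0.0396). The call held in the leave-one-out fit without Tak1/Casp8 replicate 4 (adjusted p = 0.0283). Without any 1 of the other 7 arrays it was lost (adjusted p = 0.0698 to 0.116), at differences of -0.50 to -0.37.

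The Tnfrsf13c difference was carried by few of its probe sets. Of 6 probe sets, 4 were on the negative side and 2 on the positive side. The lowest differed by -0.95 (adjusted p = 0.0617 over all probe sets) and the other 5 by -0.14 to 0.29. Each array's gene value was the median of the 6, the mean of the middle 2 on that array. With the mean over probe sets the gene differed by -0.13 (adjusted p = 0.425), and with the brightest by 0.13 (adjusted p = 0.595).

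Markers of B and plasma cells differed in both directions. Ms4a1 (CD20) was 4.92, 5.08, 4.46 and 5.11 in Tak1/Casp8 livers, against 6.32, 5.84, 5.79 and 6.05 in Tak1/Rip3 livers. Cd79a, a chain of the B cell receptor, was 5.20, 4.70, 5.23 and 5.23 in Tak1/Casp8 livers, against 6.66, 6.60, 6.37 and 6.26 in Tak1/Rip3 livers. Both were lower without overlap (limma adjusted p = 0.00442 and 0.00071), and on their brightest probe sets they differed by -0.16 and -0.44 (adjusted p = 0.644 and 0.261). Ms4a1 lay under the lower quartile on every array. Cd79a did so on each Tak1/Casp8 array and on Tak1/Rip3 replicates 3 and 4. Jchain, made by plasma cells, went the other way. It was 9.41, 8.42, 8.69 and 7.92 in Tak1/Casp8 livers, against 6.63, 6.58, 6.44 and 6.66 in Tak1/Rip3 livers. This was 2.03 higher on the log2 scale (limma adjusted p = 0.00171), without overlap, and all 6 of its probe sets passed. Cd79b, Sdc1 and Mzb1 differed by -0.40, -0.11 and 0.28 and did not pass. Of 6 measured B and plasma cell markers 2 were called lower and 1 higher, and 4 differences were below 0 and 2 above. The summed intensity of the 6 on the linear scale ranged from 3575.0 to 3951.9 in Tak1/Casp8 livers and from 3198.3 to 4107.7 in Tak1/Rip3 livers. Sdc1, with means of 11.52 in Tak1/Casp8 livers and 11.63 in Tak1/Rip3 livers, makes up most of this sum. The sum therefore says little about the dimmer markers. The part of these cells in the Tnfrsf13c difference was not tested.

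The other genes of this branch did not pass. Tnfrsf13b, which encodes TACI, was 7.24 ± 0.31 in Tak1/Casp8 livers and 7.52 ± 0.18 in Tak1/Rip3 livers (SD, n = 4 each), and differed by 0.054 with the mean over probe sets and by 0.35 on the brightest. Tnfrsf17, the plasma cell receptor BCMA, differed by 0.09 at a level under the lower quartile on every array. The ligand genes Tnfsf13b (BAFF) and Tnfsf13 (APRIL) differed by 0.03 and -0.19. For BAFF the 95% interval was -0.17 to 0.24.

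The sequences before the transcription start are shown for Tnfrsf13c, the member that passed, and for Tnfrsf9, which had the largest gene-level difference among the 24 member receptors. They are the 250 bases upstream of a RefSeq start in build GRCm38.p6, read 5′ to 3′ on the strand of the gene, at chr15:82224381-82224630 (minus strand) and chr4:150927749-150927998 (plus strand, one of the starts listed for the gene). Capitals mark a match to GGNNTTTCC or GGGNNTTCC, core forms of the NF-kB site, on either strand.
Tnfrsf13c: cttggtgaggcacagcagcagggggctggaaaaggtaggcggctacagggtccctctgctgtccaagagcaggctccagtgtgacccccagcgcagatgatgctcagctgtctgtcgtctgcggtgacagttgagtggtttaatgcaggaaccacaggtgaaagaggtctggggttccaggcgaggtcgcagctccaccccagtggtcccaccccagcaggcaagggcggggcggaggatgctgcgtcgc
Tnfrsf9: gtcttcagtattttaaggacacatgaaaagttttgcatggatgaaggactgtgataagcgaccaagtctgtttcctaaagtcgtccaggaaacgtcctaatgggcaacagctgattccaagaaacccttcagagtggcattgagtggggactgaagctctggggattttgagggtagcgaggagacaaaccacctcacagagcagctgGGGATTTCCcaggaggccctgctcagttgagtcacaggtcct
The Tnfrsf9 sequence held both forms at the same bases, and these letters are not in the Tnfrsf13c window or before the other start listed for Tnfrsf9. Promoters were listed for 31 of the 41 members, 35 in all, and 4 of the 35 (11.4%) held either form, against 8.36% of all 32851 listed promoters. The 4 genes were Tnfrsf9, Ltb, Tnfrsf13b and Tnfrsf25, which differed by 0.61, 0.09, -0.28 and -0.22 and so shared no direction. The TATA box TATAAA, also searched on both strands, was in 17.1% of the member promoters and 12.4% of all. A match to these letters is a description and not evidence of binding.

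**Figure D3:**
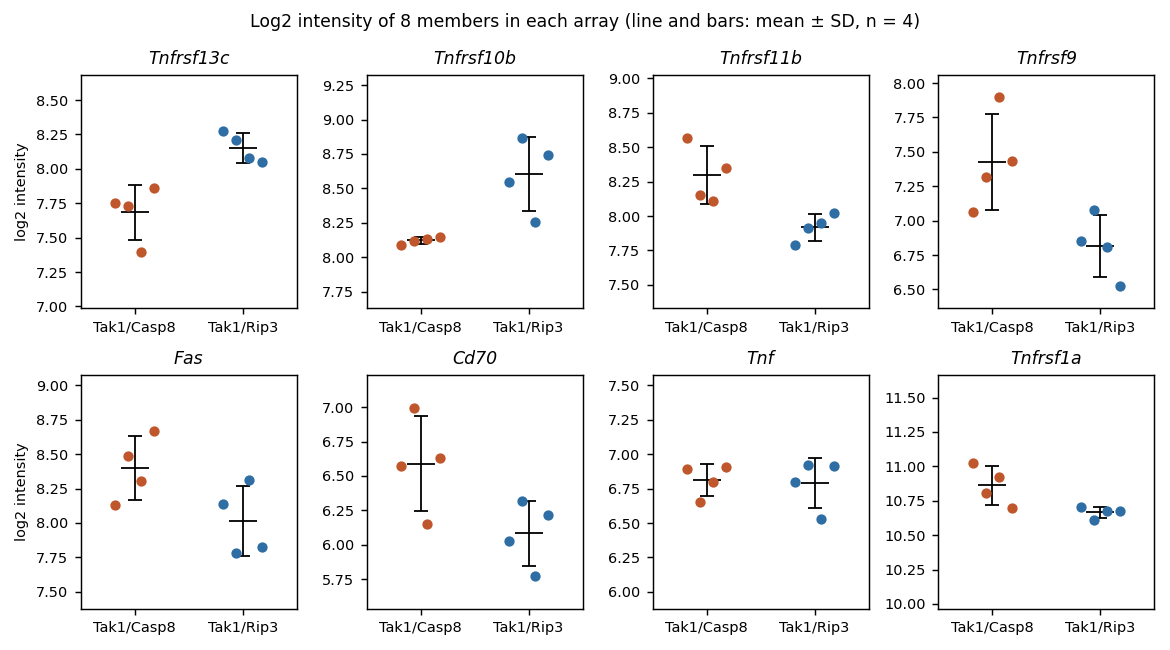
Log2 intensity (vertical axis, the same span in each panel) of 8 members in each array, Tak1/Casp8 left and Tak1/Rip3 right, with the mean ± SD (n = 4). Tnfrsf13c, Tnfrsf10b and Tnfrsf11b do not overlap between the groups, and Tnf does so almost fully.

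Costimulatory receptors and ligands pass signals between T cells and the cells that present antigen. Tnfrsf9, the T and NK cell receptor CD137, was 7.06, 7.32, 7.90 and 7.43 in Tak1/Casp8 livers, against 6.85, 7.08, 6.81 and 6.53 in Tak1/Rip3 livers. The groups overlapped by 1 array each, Tak1/Casp8 replicate 1 and Tak1/Rip3 replicate 2, which lay at 7.06 and 7.08. The difference was 0.61 ± 0.18 (limma adjusted p = 0.0702), and 10 of 11 probe sets were positive. It passed with quantile normalisation, a common array median, the mean over probe sets, genes filtered at the 30th percentile of mean level, array weights, and without Tak1/Casp8 replicate 1 (0.73, adjusted p = 0.0429). The adjusted p under these 6 settings lay between 0.0331 and 0.0482. Its ligand gene Tnfsf9 differed by -0.13.

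Among the costimulatory ligands, Tnfsf4 (OX40 ligand) and Cd70 had the largest positive differences. Cd70 was 6.57, 7.00, 6.15 and 6.63 in Tak1/Casp8 livers, against 6.03, 6.32, 5.77 and 6.21 in Tak1/Rip3 livers. It differed by 0.51 ± 0.18 (limma adjusted p = 0.129) and by -0.057 on its brightest probe set. Tnfsf4 was 4.92, 4.47, 5.68 and 5.62 in Tak1/Casp8 livers, against 4.53, 4.26, 4.37 and 4.91 in Tak1/Rip3 livers. It differed by 0.66 ± 0.26 (adjusted p = 0.174), with all of its values under the lower quartile. Tnfsf8 (CD30 ligand), equally dim, was 4.88, 4.88, 4.49 and 4.74 in Tak1/Casp8 livers, against 5.15, 5.71, 4.79 and 5.19 in Tak1/Rip3 livers. Its difference was -0.46 ± 0.18 (adjusted p = 0.168). None of these ligands separated the groups.

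The remaining costimulatory genes stood closer. Cd40, the receptor on B cells and macrophages for the T cell ligand Cd40lg, was 7.61 ± 0.21 in Tak1/Casp8 livers and 7.78 ± 0.22 in Tak1/Rip3 livers (SD, n = 4 each). Cd40lg differed by -0.38 ± 0.27 (SE), with its highest value, 6.20, on Tak1/Rip3 replicate 2, and by 0.37 on its brightest probe set. Tnfrsf8 (CD30), Tnfrsf4 (OX40), Tnfrsf18 (GITR) and Cd27 differed by 0.21, 0.04, -0.06 and -0.09. The ligand genes Tnfsf15 and Tnfsf18 differed by 0.10 and 0.01. Of the 6 receptors 0 passed in limma, with 1 (16.7%) at an unadjusted p under 0.05. Of the 7 ligands 0 passed, with 3 (42.9%) at an unadjusted p under 0.05. Over all genes 21.1% had an unadjusted p under 0.05. Of 7 measured T and NK cell markers 0 passed in limma, with 3 at an unadjusted p under 0.05, and their differences ran from -0.36 to -0.05. Their summed linear intensity was 669.2 to 723.6 in Tak1/Casp8 livers and 749.2 to 810.6 in Tak1/Rip3 livers. The part of these cells in the values above was not tested.

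The genes of tissue repair and bone turnover differed little at the gene level. Tnfsf12, which encodes TWEAK, a ligand that stimulates liver progenitor growth, rests on 1 probe set and differed by 0.32 ± 0.16 (limma adjusted p = 0.296). Its receptor gene Tnfrsf12a (Fn14) was 10.09, 9.78, 9.77 and 9.43 in Tak1/Casp8 livers, against 10.07, 9.78, 9.71 and 10.05 in Tak1/Rip3 livers. Its 4 probe sets were all negative, by -0.35 to -0.09, but the gene value differed by only -0.13 ± 0.15 with overlapping groups. Tnfsf11 (RANK ligand) and its receptor gene Tnfrsf11a differed by 0.03 and -0.15. Tnfrsf19 (TROY) differed by -0.20, with probe sets from -1.22 to 0.94. Tnfrsf10b, Tnfrsf19 and Tnfsf11 lie on chromosome 14, as does the targeted gene Ripk3. Tnfsf4, Tnfsf18, Fasl and Tnfrsf11a lie on chromosome 1, as does the targeted gene Casp8. Map3k7, targeted in both groups, lies on chromosome 4 with Tnfrsf9 and other members. Whether these positions matter was not tested.

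Single probe sets showed 2 further calls that the gene values did not. Over 206316 probe sets, 1.64% passed in limma, and 2 of the members' 328 did (0.61%). One probe set of Tnfrsf11a was 6.66, 6.75, 6.19 and 6.56 in Tak1/Casp8 livers, against 7.47, 7.55, 7.57 and 7.28 in Tak1/Rip3 livers (difference -0.93, adjusted p = 0.0257). The gene's 13 probe sets were split, 6 positive and 7 negative. One probe set of Tnfsf8 was 5.04, 4.56, 4.49 and 2.84 in Tak1/Casp8 livers, against 6.58, 6.29, 6.45 and 6.69 in Tak1/Rip3 livers (difference -2.27, adjusted p = 0.0386). The other 6 probe sets of Tnfsf8 differed by -0.33 to 0.34. In 30 of the 328 probe sets (9.15%) the groups did not overlap, against 11.5% of all probe sets. Without single arrays the count of 2 ranged from 0 to 3, being 0 without Tak1/Casp8 replicate 2 or any 1 of the Tak1/Rip3 arrays, 1 without Tak1/Casp8 replicate 1 or 3, and 3 without Tak1/Casp8 replicate 4. Where each probe set lies within its transcript was not used here.

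**Figure D4:**
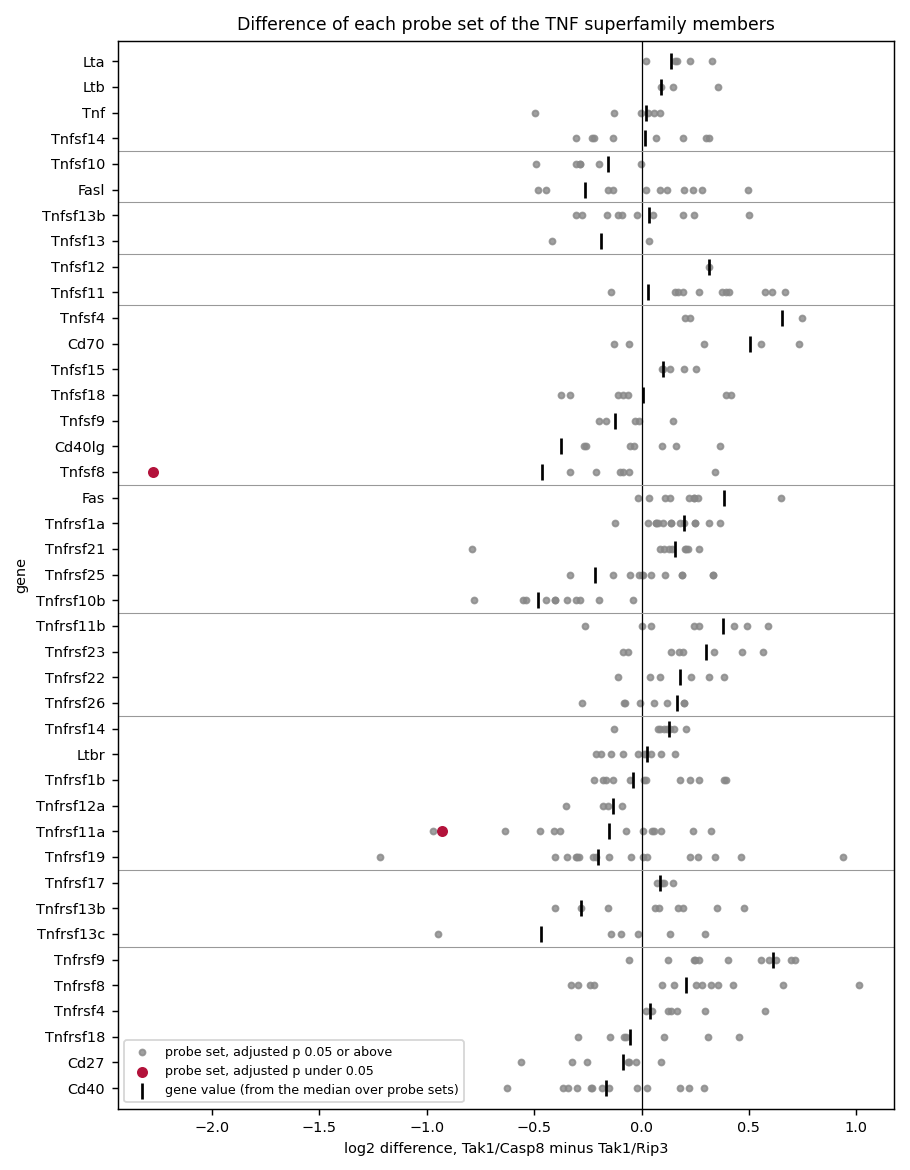
Log2 difference (horizontal axis, Tak1/Casp8 minus Tak1/Rip3) of each of the 328 probe sets of the 41 members, with the gene value as a black bar. Single probe sets of Tnfsf8 (-2.27) and Tnfrsf11a (-0.93) had an adjusted p under 0.05, while the 11 probe sets of Tnfrsf10b all lie left of 0.

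Other genes of the pathway included several that passed. Of 56 measured genes on 6 lists of the TNF pathway 9 passed (16.1%, against 6.69% of all genes). Of these, 5 were higher and 4 lower in Tak1/Casp8 livers, or 6 higher and 3 lower with quantile normalisation. The lists were chosen with earlier results of these data known, so the shares are no test of the pathway as a whole. The median difference over the 56 was 0.01. Among 15 genes that TNF is known to induce, the chemokines Cxcl1 (1.57, adjusted p = 0.00197), Ccl2 (1.40, adjusted p = 0.00801) and Cxcl2 (0.48, adjusted p = 0.0459) were higher in limma. The adhesion molecule Vcam1 was lower (-0.74, adjusted p = 0.0303), and the other 11 did not pass. Among those 11 was the chemokine Cxcl10, lower by -0.95 (limma adjusted p = 0.108), with all 4 of its probe sets negative. Of the 15 differences 10 were above 0 and 5 below. Cxcl2 lay under the lower quartile on all 8 arrays. On their brightest probe sets Cxcl1 and Ccl2 differed by 0.38 and 0.23 and lost the call (adjusted p = 0.0937 and 0.384). Cxcl1 was 10.14, 9.52, 9.59 and 9.52 in Tak1/Casp8 livers, against 7.71, 8.12, 8.02 and 8.62 in Tak1/Rip3 livers, so the groups did not overlap. Of 7 neutrophil markers 2 were called higher beside it (Cxcr2, 0.87, and Csf3r, 0.38), and 6 of the 7 differences were above 0. Csf3r passed only narrowly (limma adjusted p = 0.0499), with 0 of its 13 probe sets called. Of the 3 probe sets of Cxcr2 0 were called, and Cxcr2 lay under the lower quartile on Tak1/Rip3 replicates 1, 2 and 4. S100a9, S100a8, Mpo, Ly6g and Retnlg, which differed by 0.41, 0.26, 0.18, 0.05 and -0.34, did not pass. Their summed linear intensity was 793.5 to 990.9 in Tak1/Casp8 livers and 631.4 to 751.0 in Tak1/Rip3 livers, and their part in the chemokine differences was not tested.

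Of 14 adaptors and ubiquitin ligases Birc3, which encodes the ligase cIAP2 of the TNF receptor complex, was higher (0.61, adjusted p = 0.0144) and the adaptor gene Traf5 was lower (-0.47, adjusted p = 0.0261, and 0.10 on its brightest probe set). The differences of Ripk1 (0.23) and Birc2 (0.53), the gene of cIAP1, did not pass, and Tradd, Fadd and Traf2 differed by 0.06, 0.01 and 0.01. Of 11 brakes on the pathway only Tnfaip3, the gene of A20, passed (0.56, adjusted p = 0.0461). Nfkbia, Cyld and Cflar differed by 0.29, 0.32 and 0.21.

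Of 6 genes of ligand and receptor shedding Timp3, an inhibitor of the TNF-releasing protease ADAM17, was 10.09, 9.29, 10.30 and 9.25 in Tak1/Casp8 livers, against 10.77, 10.67, 10.66 and 10.73 in Tak1/Rip3 livers. It was 1.97-fold lower (-0.98, adjusted p = 0.0265), without overlap. Frmd8 (-0.43), Rhbdf1 (-0.22), Rhbdf2 (0.11) and Adam17 itself (-0.10) did not pass. Of 4 genes of noncanonical NF-kB 0 passed in limma, with 1 at an unadjusted p under 0.05 (Nfkb2, 0.35), against 21.1% of all genes. Relb, Chuk and Map3k14 differed by 0.30, 0.09 and 0.0013. Of 7 stellate cell markers 2 were called lower beside Timp3 (Lrat and Reln), and all 7 differences were below 0. Their summed linear intensity was 4895.1 to 7747.9 in Tak1/Casp8 livers and 7944.0 to 10099.5 in Tak1/Rip3 livers, and their part in the Timp3 difference was not tested.

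Among the receptor genes listed here the largest difference was that of Eda2r, a family gene whose symbol lies outside the naming rule. Eda2r, a receptor of ectodysplasin A2 and a known target of p53, was 6.40, 6.50, 6.31 and 6.52 in Tak1/Casp8 livers, against 7.63, 7.24, 7.73 and 7.91 in Tak1/Rip3 livers. It was 2.29-fold lower (-1.19 ± 0.14 SE, adjusted p = 0.00125), all 9 of its probe sets were negative and 4 of them passed. The ligand gene Eda differed by -0.44 (adjusted p = 0.0810), and by 0.015 on its brightest probe set. Relt, Edar and Ngfr, also receptors, differed by 0.14, 0.07 and -0.12, and Pglyrp1, a secreted protein that binds TNF receptor 1, by -0.17.

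Of the 9 pathway calls, Cxcl1, Ccl2, Birc3 and Eda2r held without any single array, with adjusted p up to 0.0444. Traf5 held without Tak1/Casp8 replicate 2 or Tak1/Rip3 replicate 4 and was lost without each other array (0.0503 to 0.0820). Tnfaip3 held without Tak1/Casp8 replicate 3 or Tak1/Rip3 replicate 4 and was lost without each other array (up to 0.111). Cxcl2 held only without Tak1/Casp8 replicate 1. Timp3 was lost without Tak1/Casp8 replicate 2 or any 1 of the Tak1/Rip3 arrays, and Vcam1 without Tak1/Casp8 replicate 2 or Tak1/Rip3 replicate 1, 2 or 4. With 1 array left out, 4 of the 56 passed in the fit lacking Tak1/Rip3 replicate 1, and 5 in each of the fits lacking Tak1/Casp8 replicate 2, Tak1/Rip3 replicate 2 or Tak1/Rip3 replicate 3. On the brightest probe sets 2 of the 56 passed, 1 higher and 1 lower (Eda2r, -0.69). Cxcl1 and Ccl2 were not among them.

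**Figure D5:**
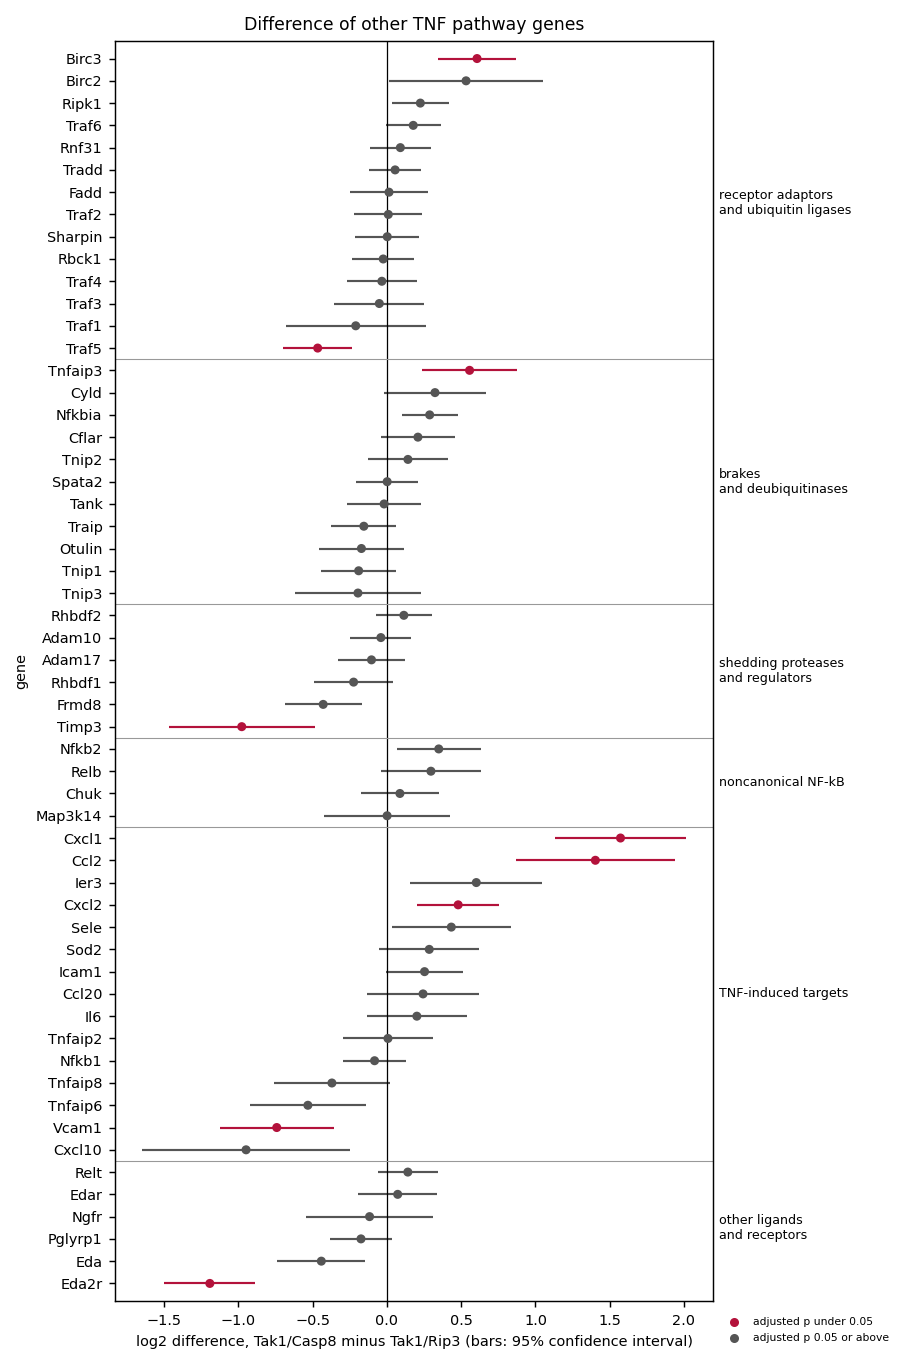
Log2 difference (horizontal axis, Tak1/Casp8 minus Tak1/Rip3) with its 95% confidence interval for 56 other genes of the TNF pathway, in 6 lists. The 5 higher calls are Cxcl1, Ccl2, Birc3, Tnfaip3 and Cxcl2, and the 4 lower calls are Eda2r, Timp3, Vcam1 and Traf5.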

How the data were processed

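RNA from 8 livers was measured with 1 Affymetrix array per mouse. The deposited values are log2 intensities per probe set, normalised by the authors with RMA per the submitters' processing notes. No RMA version or genome build is stated there. Of 223771 probe sets, 206316 carry 1 gene symbol in the platform annotation, 3734 several and 13721 none. Symbols were updated through the synonyms that RefSeq lists for each gene (2571 symbols), and the 19560 gene values are medians over the probe sets of a gene.

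Groups were compared with limma 3.58.1 (lmFit and eBayes, R 4.3.3) on all 8 arrays, with Benjamini-Hochberg adjustment over all genes, called under 0.05. Only the gene-level limma and Welch fits were run on simulated data, with normally distributed values and known differences. The other steps were not tested in this way. The p-values set each difference against the spread between mice within a group, with variances moderated over all genes. The labels do not say whether mice shared a litter or a hybridisation day, so any effect of these cannot be told apart from that of the group. The members and lists were chosen with earlier results of these data known. Named genes were every member called, the 6 uncalled members with the largest absolute difference, well-known members, up to 4 genes per pathway list by adjusted p, and the targeted genes. Others are named to account for every member. Promoter sequences are RefSeq's (GRCm38.p6). Alternatives covered scaling, the summary over probe sets, filters, the variance model, thresholds and left-out arrays. Figures were drawn with matplotlib 3.10.9.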

Additional observations from a re-analysis of the deposited data

Results flagged for a closer look

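In 9 of the 82 groups of 4 values of the members (41 genes in each of 2 groups), 1 array stood apart from the other 3, by a gap whose share of the group's whole range was above Dixon's 95% critical value. Chance alone gives about 1 in 20 such groups. Among Tak1/Casp8 arrays, Tnfrsf14 was 9.05 on replicate 4 against 8.88 to 8.90 (gap share 0.882), and Tnfsf13b was 7.41 on replicate 1 against 7.18 to 7.21 (0.886). Among Tak1/Rip3 arrays, 3 cases fell on replicate 2. There Tnfrsf25 was 7.52 against 6.95 to 7.03 (0.866), Tnfrsf26 was 6.71 against 6.37 to 6.39 (0.948), and Tnfrsf11a was 7.58 against 7.86 to 7.88 (0.939). On replicate 1, Ltb was 7.54 against 7.17 to 7.19 (0.943) and Tnfsf9 was 6.39 against 6.08 to 6.12 (0.865). Tnfrsf17 was 5.75 on replicate 3 against 5.92 to 5.95 (0.842), and Tnfrsf4 was 6.89 on replicate 4 against 7.40 to 7.42 (0.952). None of these 9 genes was called.

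Among the other genes, Cxcl1 was 10.14 on Tak1/Casp8 replicate 1 against 9.52 to 9.59 (0.878), and Rhbdf2 was 9.05 on Tak1/Casp8 replicate 4 against 9.22 to 9.24 (0.869). Cd79a was 4.70 on Tak1/Casp8 replicate 2 against 5.20 to 5.23 (0.946). Ripk3 was 6.36 on Tak1/Rip3 replicate 1 against 7.04 to 7.18 (0.835). The cause of none of these was tested.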

How the results depend on the processing

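Over 20 other settings the sign of 21 members never changed and that of 20 did in at least 1, and 5 members passed only under an alternative. The other thresholds, the Welch test, the trended robust variances and the level filters leave each difference as it was. A sign could therefore change only in the remaining settings. The Tnfrsf13c call held in 6 of the 20 settings, and its outcome at the other thresholds was fixed by the main fit. The count of 1 member became 2 with quantile normalisation, a common array median, the mean over probe sets (Tnfrsf9 and Tnfsf8) or trended robust variances. It became 3 when genes under the 30th percentile of mean level (28 members tested) or the 50th (13 tested) were left out and with array weights, and 4 at a threshold of 0.10. The share of members was below that of all genes in these settings except past the 50th percentile, with 23.1% of the 13 members against 13.7% of 9780 genes (30th percentile, 10.7% against 11.4%). It was 0 at a threshold of 0.01 in limma (8 at an unadjusted p under 0.05), 0 with the Welch test (4 unadjusted) and 0 without both least correlated arrays, an alternative chosen after seeing the data. Without single arrays it was 0 to 1. The 2 probe sets called became 5 with array weights or at 0.10, 3 with trended robust variances, 0 at 0.01 in limma (44 unadjusted), and 0 to 3 without single arrays. The 9 pathway calls became 2 on the brightest probe sets, 0 with the Welch test (16 unadjusted), 3 at 0.01, 5 without both least correlated arrays and 4 to 7 without single arrays. Over all genes, 1308 calls became 759 on the brightest probe sets, 115 with Welch and 1957 with array weights. No paired analysis was possible because the labels give no replicate numbers shared between the groups.

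Signs reversed on the brightest probe set for Cd40 (0.18), Cd40lg (0.37), Cd70 (-0.057), Fasl (0.12), Tnfrsf11a (0.0089), Tnfrsf13b (0.35), Tnfrsf13c (0.13), Tnfrsf18 (0.31), Tnfrsf25 (0.33), Tnfrsf26 (-0.28), Tnfsf13 (0.037), Tnfsf13b (-0.092), Tnfsf14 (-0.23), Chuk (-0.0094), Eda (0.015), Map3k14 (-0.0039), Pglyrp1 (0.45), Rhbdf2 (-0.036), Traf5 (0.10), Map3k7 (0.088) and Ripk3 (-0.036). With the mean over probe sets they reversed for Cd40lg (0.0015), Fasl (0.021), Ltbr (-0.032), Tnf (-0.076), Tnfrsf13b (0.054), Tnfrsf18 (0.039), Tnfrsf1b (0.061), Tnfrsf25 (0.056), Tnfsf14 (-0.0019), Tnfsf18 (-0.022), Map3k14 (-0.061), Pglyrp1 (0.013) and Map3k7 (0.094). Without both least correlated arrays they reversed for Tnfrsf17 (-0.022), Tnfrsf1b (0.088), Tnfsf14 (-0.0008) and Chuk (-0.049). Scaling to a common median reversed Tnfrsf18 (0.016) and Tnfrsf1b (0.031), and quantile normalisation reversed Tnfsf14 (-0.022) and Tnfsf18 (-0.049). Array weights reversed Tnfrsf1b (0.017), Tnfsf14 (-0.0095), Tnfsf18 (-0.039) and Map3k14 (-0.022). Without single arrays the differences ran from -0.028 to 0.11 for Ltbr, -0.065 to 0.075 for Tnf, -0.034 to 0.20 for Tnfrsf17, -0.16 to 0.027 for Tnfrsf18, -0.096 to 0.057 for Tnfrsf1b, -0.089 to 0.091 for Tnfrsf4, -0.028 to 0.078 for Tnfsf11, -0.021 to 0.058 for Tnfsf13b, -0.014 to 0.065 for Tnfsf14, -0.21 to 0.17 for Tnfsf18 and -0.13 to 0.14 for Map3k14. The cause was not tested. With 4 arrays per group the precision is limited, and 9 members lay under the arrays' lower quartile on all 8 arrays.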

Other observations

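Of the probe sets annotated to several genes, 2 belong to the read-through of Tnfsf12 and Tnfsf13 and entered no gene value. The one shared with Tnfsf12 averaged 10.31 in Tak1/Casp8 livers and 9.98 in Tak1/Rip3 livers, a difference of 0.34. The one shared with Tnfsf13 averaged 7.73 in Tak1/Casp8 livers and 7.56 in Tak1/Rip3 livers, a difference of 0.16. These differences were not tested.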
